A study of Mus musculus with 2 samples.

Results

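The genes described here are the fibroblast growth factor (FGF) ligands, their receptors, co-receptors and binding proteins, and the feedback inhibitors and transcription factors that FGF signalling switches on. They were chosen by gene symbol: every probe set that the platform annotation ties to a single gene and whose symbol is Fgf plus a number, Fgfr1 to Fgfr4, Fgfrl1, Fgfbp1, Fgfbp3, Kl, Klb, Spry1 to Spry4, Spred1 to Spred3, Dusp4, Dusp6, Etv1, Etv4 or Etv5. The rule gave 42 of 18193 genes, measured by 91 probe sets. Etv1 is not among them, because each of its probe sets carries a second symbol.

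FGF ligands are secreted proteins that bind receptor tyrosine kinases at the cell surface together with heparan sulfate. The receptors signal mainly through the RAS and ERK cascade, which turns on Etv factors and also the pathway's own brakes, the Sprouty and Spred proteins and the ERK phosphatase Dusp6, so that these transcripts are widely used as a readout of the pathway. In the embryo, FGF from the heart mesoderm is known to help induce the liver bud, and ligands made by mesothelia and mesenchyme, among them Fgf9 and Fgf10, are known to act on neighbouring tissue in several organs.

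The mesothelial array carried RNA of cells sorted as mesothelial cells, the epithelium that covers the liver. They were taken from trypsin-digested livers by FACS with antibodies to podoplanin (Pdpn). Markers of other cell types, given below, were also above the floor on this array, and the purity of the sorted cells was not tested. The liver array carried RNA of liver cells, and whether the sort had depleted these of Pdpn-positive cells is not stated in the labels. Both came from wild-type C57Bl6 mouse embryos at E12.5, with no treatment named, and 20 ng of RNA was amplified for each array. Neither label says how many embryos were pooled. Each group had 1 array, so nothing was tested for significance and all values are descriptions of the 2 arrays. The comparison asks which FGF genes differ between the cells sorted as mesothelial, called mesothelial cells here, and the liver cells.

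Values are probe set intensities as deposited, on a linear scale, and a gene's value is that of its probe set with the highest mean log2 intensity. Differences are on the log2 scale, mesothelial minus liver. The median probe set read 65.8 on the mesothelial array and 42.3 on the liver array, and a gene reading at or above the median on either array is said to be above the floor. The brightest of 27 bacterial controls with no matching RNA read 16.2 and 10.5, called the control level here, and a fold against a value at or below it is given as a lower bound. Genes above the floor that differed by 2-fold or more are called mesothelial-high or liver-high. The median difference over all 18193 genes was 0.66, which is 1.58-fold towards mesothelial cells for the typical gene, and list medians are also given relative to it. Probe sets for the same gene differed with a pooled SD of 0.70 over 5323 genes, which holds no variation between embryos, sorts or arrays. Of the mesothelial markers, Pdpn, the gene sorted on, read 3877 against 100, and Wt1, a transcription factor of coelomic epithelia, 1994 against 102.0. The liver label has no such mark from hepatoblast genes: all 6 markers were brighter on the mesothelial array as deposited, and 2 of the 6 after median centring. Of 5 erythroid markers, 3 were at least 2-fold brighter on the liver array. Intensities of different probe sets are not compared with each other, since each binds its own target with its own efficiency.

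FGF receptors and feedback inhibitors were brighter in mesothelial cells, whereas most FGF ligands read dim on both arrays. Of the 42 genes, 24 were above the floor, or 57.1%, against 66.1% of all genes. Of these 24, 18 were mesothelial-high and 0 liver-high, where the background over 12018 genes above the floor was 45.4% and 3.83%. A gene above the floor only on its brighter array had to differ, and 9 of the 18 were of that kind. The other 9 were above the floor on both arrays, out of 13 FGF genes so placed, none of them liver-high, where the background was 42.2% mesothelial-high and 1.62% liver-high. After each array was centred on its median, 14 of the 24 were mesothelial-high and 1, Fgf14, liver-high, against a background of 23.9% and 9.25%. The 42 genes had a median difference of 1.17, which is 0.50 beyond the typical gene, and the roles ran from 0.18 for the ligands to 2.10 for the receptors. The ligand median turned negative under every other scaling tried.

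**Figure D1:**
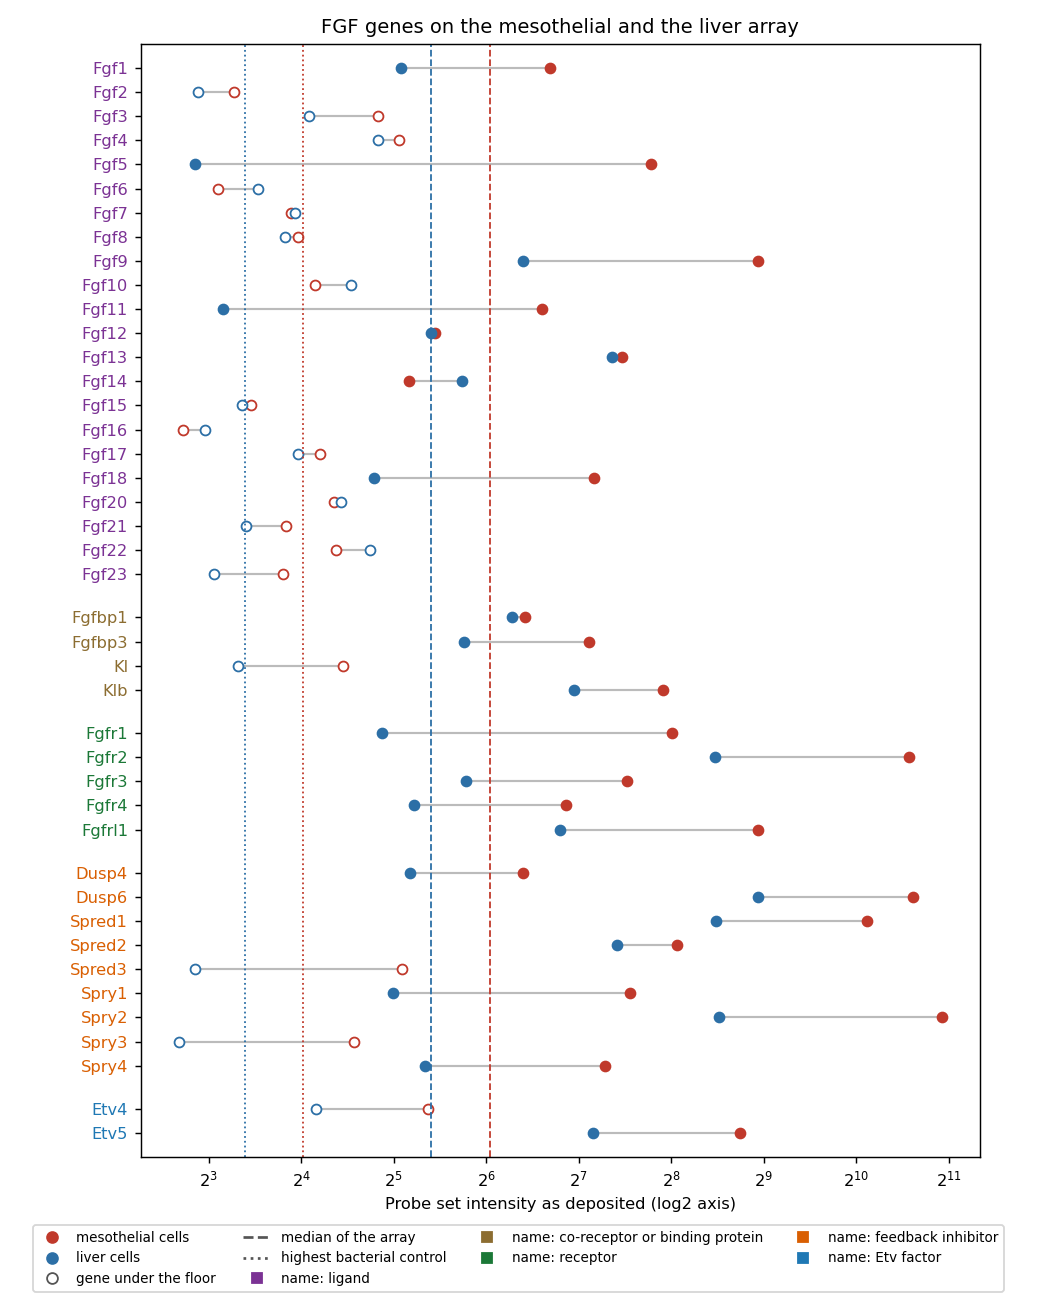
Intensity as deposited of each FGF gene (log2 axis) in mesothelial cells (red) and liver cells (blue), 1 array each, with gene names coloured by role; dashed lines mark each array's median (65.8 and 42.3), dotted lines the brightest bacterial control (16.2 and 10.5), and open points genes under the floor. All 5 receptors and 7 of 9 feedback inhibitors lie above the floor with the mesothelial value to the right, while 14 of 22 ligands lie under the floor; levels of different genes are not comparable.

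Among ligands that act locally after secretion, 4 of 15 were above the floor, or 26.7%, against 66.1% of all genes. All 4 were mesothelial-high, against 45.4% of all genes above the floor, but 3 of them passed the floor on the mesothelial array alone. Fgf9, a ligand known from mesothelium and epithelium of the developing lung, read 491.0 on the mesothelial and 84.1 on the liver array, 5.84-fold higher. Its second probe set read 613.8 against 59.0, 10.4-fold higher. Fgf9 was the only ligand of this kind above the floor on both arrays, and both of its probe sets exceeded 2-fold. Fgf18, a ligand of the Fgf8 subfamily with known roles in lung and skeleton, read 143.9 against 27.6, 5.21-fold higher, from a single probe set.

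The other such ligands above the floor rested on 1 of several probe sets. Fgf5, a ligand known for its role in the hair cycle, read 220.8 against 7.2, at or below the control level in liver cells, and thus at least 21.0-fold higher. Its other probe set, under the floor, read 35.2 against 19.6. Fgf1, a ligand that binds all the FGF receptors, read 103.6 against 33.9, 3.06-fold higher. Its other 2 probe sets, both under the floor, read 43.1 against 40.8 and 22.3 against 17.1. The SD between probe sets was 2.89 for Fgf5 and 0.81 for Fgf1, against 0.59 for Fgf9, so the sizes for Fgf5 and Fgf1 depend on which probe set is read.

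The remaining 11 local ligands were under the floor, and none of their gene values differed by 2-fold as deposited. Fgf10, a mesenchymal ligand known from lung and limb budding, read 17.7 against 23.2. Fgf7, a related ligand that acts on epithelia, read 14.8 against 15.3, at the control level in mesothelial cells. Fgf8, known from the cardiac mesoderm and limb, read 15.6 against 14.2, also at the control level in mesothelial cells. These 3 ligands were thus dim in both samples.

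Fgf2, a broadly acting ligand, read 9.7 against 7.4 and Fgf16, a ligand known from the heart, 6.6 against 7.8, at the control level on both arrays. Fgf3 read 28.4 against 17.0 and Fgf4, known from early embryo and limb, 33.3 against 28.5. The muscle ligand Fgf6 read 8.6 against 11.6, Fgf17 18.4 against 15.6, Fgf20 20.4 against 21.6 and Fgf22 20.8 against 26.9. A low reading says that the probe set was dim, and the file carries no detection flags that would tell a silent gene from a probe set that binds poorly.

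The endocrine ligands, which act at a distance with klotho co-receptors, were under the floor in all 3 cases, with every mesothelial value at the control level. Fgf15, the mouse hormone that represses bile acid synthesis, read 11.0 against 10.3. Fgf21, a metabolic hormone of the adult liver, read 14.3 against 10.6, and the phosphate hormone gene Fgf23 14 against 8.3. The intracellular FGF homologous factors Fgf11 to Fgf14, which are named for their sequence, bind sodium channels and are not secreted, were all above the floor, Fgf12 only by its liver value of 42.3, which equals the array's median. Fgf11 read 97.4 against 8.9, at least 9.28-fold higher in mesothelial cells, but its other probe set read 15.9 against 22.5. Fgf13 read 177.4 against 165.0 and Fgf12 43.6 against 42.3, and both of these small differences turned negative under every other scaling tried. Fgf14 read 36.0 against 53.5, the lowest difference of the 42 genes at -0.57, and a further probe set of it read 13.2 against 57.6, at least 3.56-fold higher in liver cells. Of the 4 Fgf14 probe sets, 3 were brighter in liver cells.

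**Figure D2:**
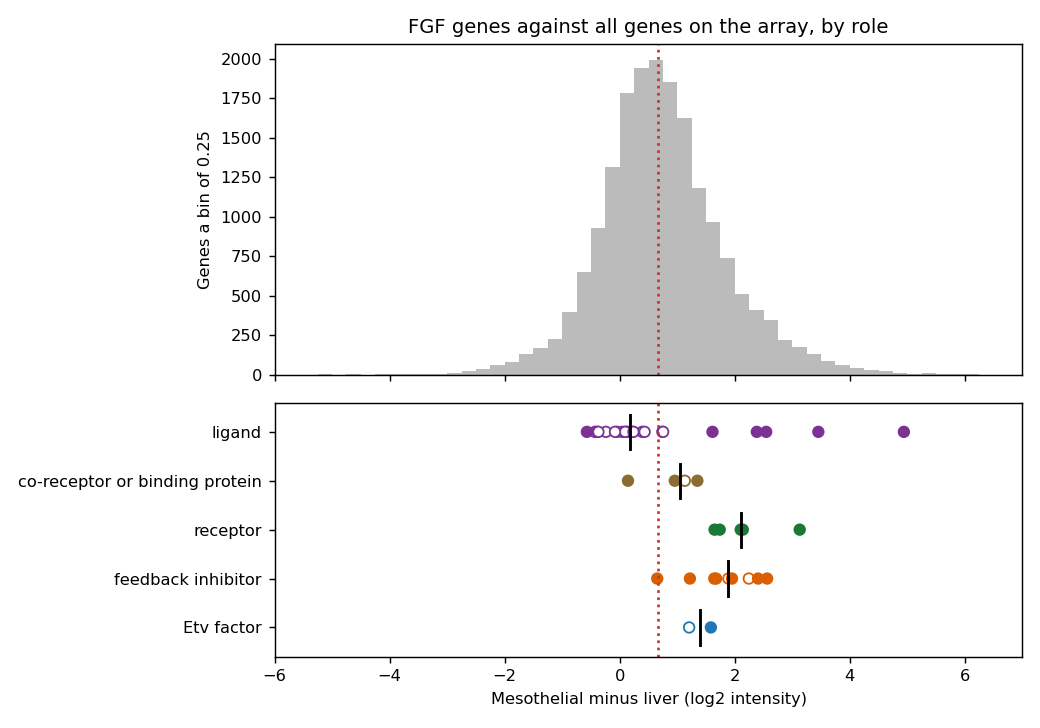
The upper panel counts all 18193 genes by their difference (mesothelial minus liver, log2 intensity, bins of 0.25), and the lower panel places the 42 FGF genes by role, with open points under the floor, a black bar at the median of each role and a dotted line at the median of all genes (0.66). The ligand median (0.18, negative under every other scaling) lies to the left of that line, and the medians of the receptors (2.10) and feedback inhibitors (1.89) lie to its right.

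All 4 signalling receptors and the decoy receptor Fgfrl1 were mesothelial-high, where the background was 45.4% of genes above the floor. Fgfr1 and Fgfr4 passed the floor on the mesothelial array alone, where they are high, and the other 3 receptors on both arrays. The receptor median of 2.10 lay 1.44 beyond the typical gene. Fgfr1, the main receptor of mesenchymal tissues, read 257.0 against 29.4, 8.74-fold higher. Its other probe sets read 147.8 against 16.6 and 64.5 against 14.4, so that the smallest of the 3 differences was 4.48-fold. Fgfr1 had the largest difference of the receptors, 3.13, and it stayed at 2.05 or more under every scaling tried.

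Fgfr2, a receptor whose epithelial form binds Fgf7 and Fgf10, read 1527 against 355.6, 4.29-fold higher, from a probe set whose name marks shared sequence with other transcripts. Its other probe sets read 66.2 against 49.9 and, for the last, at the control level on both arrays. Without probe sets named that way its difference was 0.41, below the median of all genes. The size for Fgfr2 therefore rests on 1 of 3 probe sets.

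Fgfr3, known as a brake on cartilage growth, read 183.7 against 55.1, 3.33-fold higher, and its second probe set, under the floor, 27.6 against 18.4. Fgfr4, the receptor that hepatocytes pair with Klb and that muscle precursors also carry, read 116.9 against 37.3, 3.13-fold higher. Of its 5 probe sets, 4 were at least 2-fold brighter in mesothelial cells, although only 1 was above the floor. Fgfrl1, a receptor with no kinase domain, read 491.0 against 111.5 and 337.4 against 154.3 with its 2 probe sets, 4.40-fold and 2.19-fold higher. After median centring all 5 receptors were still mesothelial-high, against 23.9% of all genes above the floor. After quantile normalization or reference gene centring 3 were (Fgfr1, Fgfr2 and Fgfrl1), against 20.7% and 20.8%.

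The co-receptors and binding proteins differed less, their median of 1.04 lying 0.38 beyond the typical gene and turning negative under hybridisation control centring. Klb, beta-klotho, the co-receptor for Fgf15 and Fgf21, read 240.3 against 123.8, 1.94-fold higher, and its second probe set was at the control level on both arrays. Kl, alpha-klotho, the co-receptor for Fgf23 in kidney, was under the floor at 21.9 against 10. Fgfbp3, a secreted protein that carries FGFs, read 138.6 against 54.4, 2.55-fold higher, and its relative Fgfbp1 85.9 against 77.8. The sign for Klb turned under hybridisation control centring, and that for Fgfbp1 under every other scaling tried.

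The feedback inhibitors were brighter in mesothelial cells in all 9 cases as deposited, and their median of 1.89 lay 1.22 beyond the typical gene. Of the 7 above the floor, 6 were mesothelial-high, against 45.4% of all genes above the floor. Of these 6, Spry1, Spry4 and Dusp4 passed the floor on the mesothelial array alone, where they are high. Of the 4 above the floor on both arrays, 3 were mesothelial-high, against 42.2% of all genes so placed. Spry2, a Sprouty protein that blocks signalling between receptor and RAS, read 1946.7 against 367.7, 5.29-fold higher. Its second probe set read 12.7 against 12.9, so the SD between them was 1.72. Spry1, which is known to restrain FGF and GDNF signalling in the kidney, read 188.3 against 31.9, 5.90-fold higher, from a single probe set. Spry4 read 156.2 against 40.4, 3.87-fold higher, and a further probe set 127.6 against 15.8, 8.08-fold higher. Of its 4 probe sets, 3 were at least 2-fold brighter in mesothelial cells and the last read 11.8 against 10.6. Spry3 was under the floor at 23.7 against 6.4. The Sprouty genes thus shared a direction, but the size for Spry2 rests on 1 of 2 probe sets.

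Spred1, a membrane protein that blocks RAF activation, was measured by 8 probe sets. Its gene value was 1115.8 against 357.3, 3.12-fold higher, and 5 of the 8 were at least 2-fold brighter in mesothelial cells, with differences from -0.15 to 1.64. Spred2, its relative, read 267.5 against 170.3, a difference of 0.65, close to that of the typical gene, and none of its 5 probe sets reached 2-fold. Spred2 also turned negative under 3 of the 5 other scalings. Spred3 was under the floor at 34.1 against 7.2. Dusp6, the phosphatase that removes phosphate from ERK in the cytoplasm, read 1566.8 against 490.8, 3.19-fold higher, and Dusp4, a nuclear phosphatase of the same family, 84.3 against 36.2, 2.33-fold higher, each from a single probe set. Spred1 and Dusp6 were above the floor on both arrays.

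The Etv factors, ETS transcription factors induced by FGF, pointed the same way with less support. Etv5 read 428.1 against 142.8, a difference of 1.58. Its other probe sets read 77.6 against 43.8 and, under the floor, 14.6 against 25.4. Its 3 probe sets therefore did not share a sign, with an SD of 1.22. Etv4 was under the floor at 41.3 against 17.9.

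**Figure D3:**
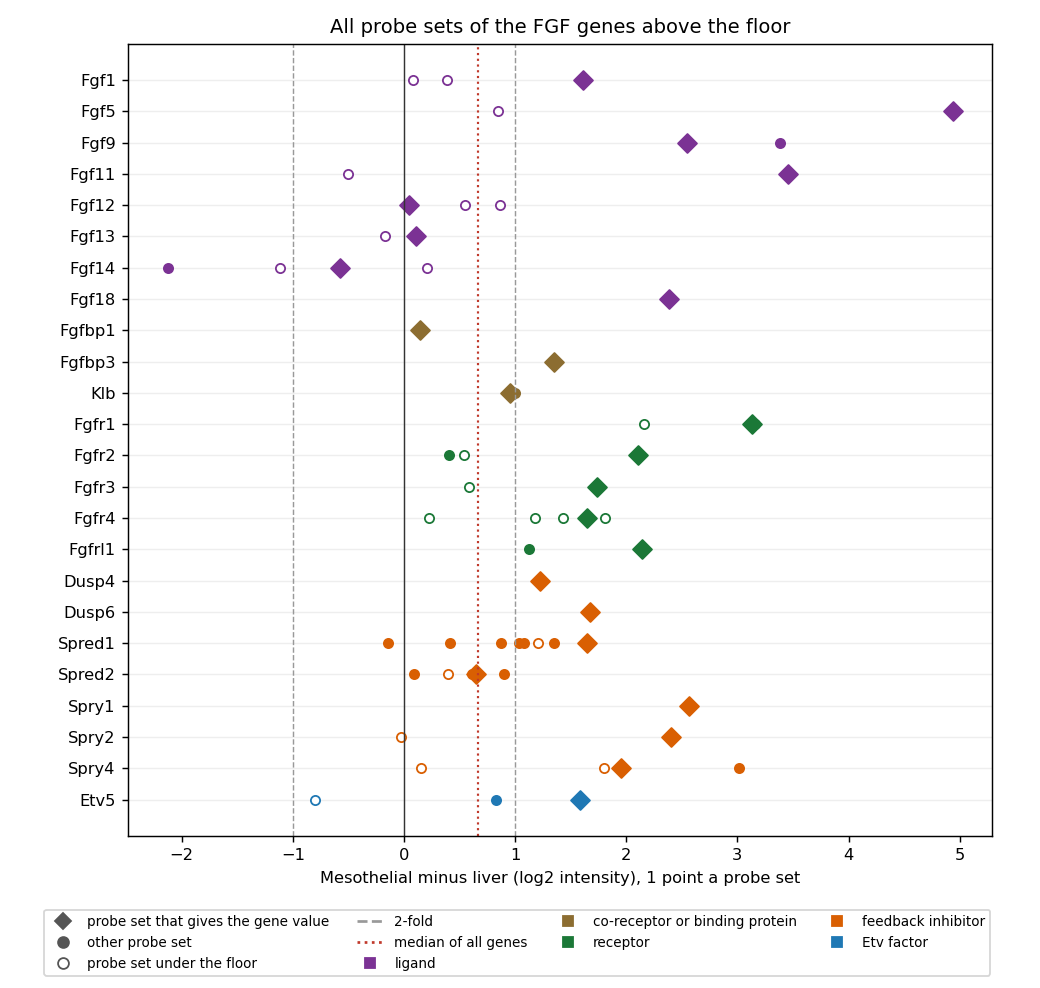
Difference (mesothelial minus liver, log2 intensity) of every probe set of the 24 FGF genes above the floor, coloured by role, with a diamond for the probe set that gives the gene value and open points for probe sets under the floor. All probe sets of Fgfr1, Fgf9 and Fgfrl1 lie to the right of the 2-fold line, whereas those of Fgf5, Fgf11, Spry2 and Etv5 lie far apart.

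Over probe sets in place of genes, 40 of the 91 passed the floor, 25 of them mesothelial-high, against a background of 41.2% of probe sets. Of the 18 genes called at 2-fold, 13 had several probe sets, and in 10 of those the median over them was still at least 2-fold. The exceptions were Fgf1, Fgfr2 and Etv5. This median includes the probe set that made the call, so it is no independent check, and with 2 probe sets it is their mean. In called genes with 2 probe sets, the other one differed by -0.50 for Fgf11, -0.023 for Spry2, 0.58 for Fgfr3 and 0.84 for Fgf5. It differed by 1.13 for Fgfrl1 and 3.38 for Fgf9.

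The feedback inhibitors called at 2-fold and above the floor on both arrays were Dusp6, Spred1 and Spry2, and their promoters are shown because these transcripts were higher together in mesothelial cells. Each is 250 bases before to 50 after a RefSeq transcription start (GRCm38.p6), 5′ to 3′ on the gene's strand. Capitals mark CGGAAG, the core of many ETS sites, on either strand (read as its reverse complement, CTTCCG, on the minus strand).
Dusp6 promoter, chr10:99262981-99263280, plus strand: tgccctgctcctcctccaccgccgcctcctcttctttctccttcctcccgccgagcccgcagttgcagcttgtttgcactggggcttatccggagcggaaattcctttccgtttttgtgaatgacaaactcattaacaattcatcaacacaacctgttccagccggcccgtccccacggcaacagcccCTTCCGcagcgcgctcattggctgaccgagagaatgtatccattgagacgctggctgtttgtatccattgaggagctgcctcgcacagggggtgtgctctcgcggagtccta
Spred1 promoter, chr2:117120821-117121120, plus strand: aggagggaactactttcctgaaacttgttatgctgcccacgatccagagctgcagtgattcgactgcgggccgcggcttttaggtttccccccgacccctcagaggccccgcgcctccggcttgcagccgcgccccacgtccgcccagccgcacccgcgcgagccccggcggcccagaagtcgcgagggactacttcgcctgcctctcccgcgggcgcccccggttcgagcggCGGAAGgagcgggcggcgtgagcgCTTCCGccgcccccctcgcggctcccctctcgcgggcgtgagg
Spry2 promoter, chr14:105896770-105897069, minus strand: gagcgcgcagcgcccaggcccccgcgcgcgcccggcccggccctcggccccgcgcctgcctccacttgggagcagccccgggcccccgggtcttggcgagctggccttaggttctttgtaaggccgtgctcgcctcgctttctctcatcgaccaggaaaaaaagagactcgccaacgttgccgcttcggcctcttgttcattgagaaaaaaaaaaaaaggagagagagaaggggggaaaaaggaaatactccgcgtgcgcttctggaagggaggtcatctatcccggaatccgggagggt
The core was found 62 bases before the start in Dusp6 and, in Spred1, 17 bases before it and 8 bases into the transcript, and not in this window of Spry2. Etv5, an Etv factor, was also called at 2-fold and above the floor on both arrays. Its windows are not shown, and none of them held the core. Of all 32851 windows in the table, 16.9% held CGGAAG, as did 8 of 39 windows of FGF genes (20.5%), which covered 31 of the 42 genes. The longer CCGGAAGT, which contains the core, stood in 3.89% of all windows and in 1 of the 39, that of Fgfrl1, and the AP-1 motif TGACTCA, searched on both strands which neither contains nor lies inside the others, in 5.2% and in 1, of Fgf12. The share among FGF genes was thus near that of all windows.

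**Figure D4:**
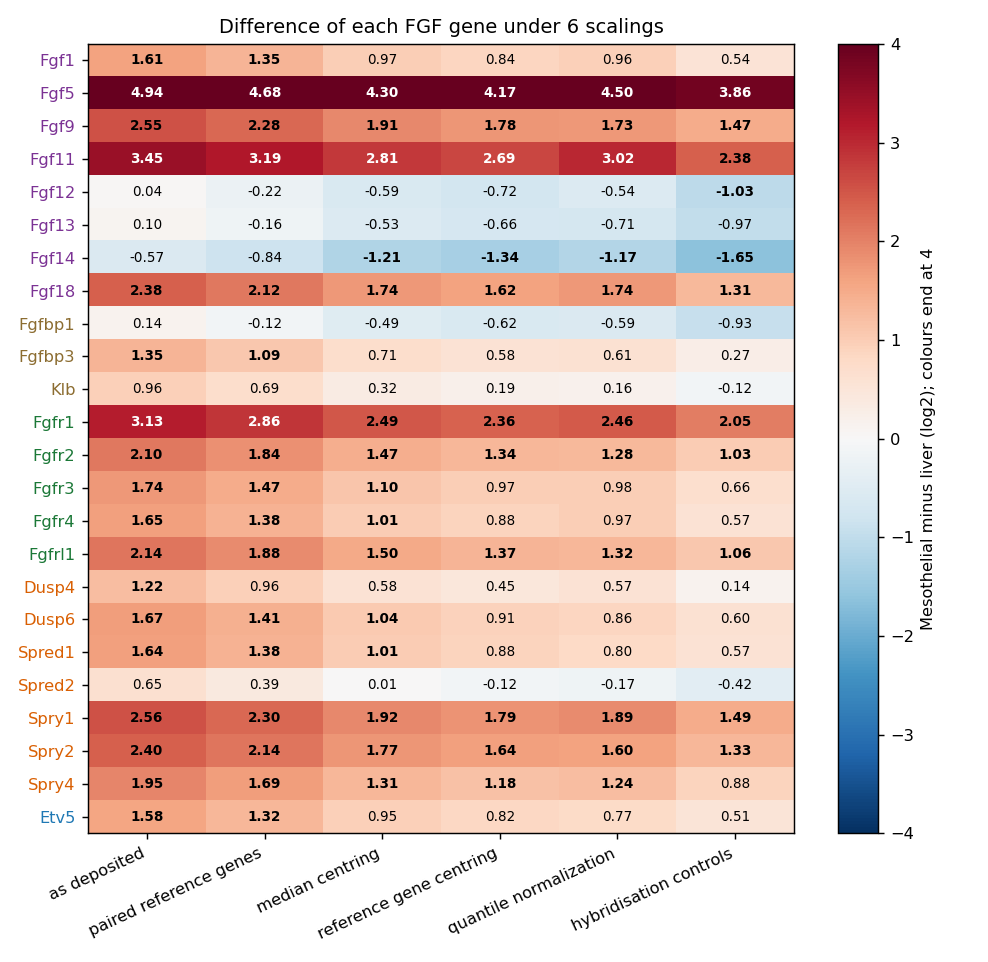
Difference (mesothelial minus liver, log2) of each of the 24 FGF genes above the floor as deposited and under 5 other scalings, red for higher in mesothelial cells, blue for higher in liver cells and bold for at least 2-fold. The rows of Fgf5, Fgf9, Fgf11, Fgf18, Fgfr1, Fgfr2, Fgfrl1, Spry1 and Spry2 stay bold in all columns, and Fgf14 is blue throughout.

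The scaling of the arrays set how many FGF genes were called. As deposited, 18 of the 24 above the floor were mesothelial-high. With the median difference of the reference genes removed the count was 17, against 34.7% of all genes above the floor. With reference gene centring it was 10, against 20.8%, and 1 FGF gene was liver-high, against 11.1%. With quantile normalization it was also 10, against 20.7%, and 1 liver-high, against 11.1%. Centring on the hybridisation controls gave 9, against 14.6%, and 2 liver-high, against 17.9%. The liver-high genes were Fgf14 and, with the hybridisation controls, also Fgf12.

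The count also depended on the threshold, the floor and the choice of probe sets. At a 4-fold threshold 9 of the 24 were higher in mesothelial cells, against 15.9%. With a floor at the 75th percentile 7 of 7 were, against 42.9%, and with the median over probe sets 12 of 18, against 38.4%. Leaving out probe sets ending in _x_at or _s_at gave 17 of 24, against 43.4%, and no floor 22 of 42, against 36.2%.

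The genes that stayed mesothelial-high under every scaling were 9: Fgf5, Fgf9, Fgf11, Fgf18, Fgfr1, Fgfr2, Fgfrl1, Spry1 and Spry2. Most scalings subtract 1 constant from all genes, so this names the genes with the largest differences as deposited. Subtracting a constant also leaves the chosen probe set of each gene in place. As deposited, the median over probe sets was 0.54 for Fgfr2, 1.19 for Spry2, 1.48 for Fgf11 and 1.63 for Fgfrl1. It was 2.89 for Fgf5, 2.96 for Fgf9 and 3.13 for Fgfr1, while Fgf18 and Spry1 have 1 probe set each. Dusp6 ranged from 0.60 to 1.67, Spred1 from 0.57 to 1.64 and Etv5 from 0.51 to 1.58 on the log2 scale. Dusp4 was at 0.14 with the hybridisation controls as reference.

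Other genes of the pathway were described from lists by role, to be read against the 45.4% and 23.9% of all genes above the floor that were mesothelial-high as deposited and after median centring. Of 16 measured genes that relay the signal from receptor to ERK, all were above the floor and 6 were mesothelial-high, and the list median of 0.86 lay 0.20 beyond the typical gene. Plcg1, a phospholipase that FGF receptors bind, read 2709 against 687.6, 3.94-fold higher, and the RAS activator gene Sos2 3.25-fold. At the other end, Pik3r1, the regulatory subunit of PI3-kinase, read 1022 against 1001 and the ERK kinase gene Map2k2 625.2 against 483.6. After median centring 2 of the 16 were, so the relay genes as a list lay near the typical gene.

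Of 12 other brakes on the pathway, 11 were above the floor and 8 mesothelial-high, falling to 4 once arrays were centred, with 1 then liver-high. Their median of 1.17 lay 0.51 beyond the typical gene. Il17rd, a membrane inhibitor of FGF receptors also called Sef, read 183.4 against 16.2, 11.3-fold higher, and its 2 probe sets had an SD of 2.34. Rasa2, a RAS GTPase activating protein, was 4.02-fold higher. The ubiquitin ligase gene Cbl read 189.2 against 316.3, and Dusp1, a phosphatase induced by stress, 4706 against 4282. Of 13 other genes read as ERK targets, 12 were above the floor, 8 were mesothelial-high and 1 liver-high, and the median of 1.14 lay 0.47 beyond the typical gene. After median centring the counts were 2 and 2. Phlda1 was 3.82-fold and Ets1 3.76-fold higher in mesothelial cells, Ier3 2.48-fold higher in liver cells, and Myc read 344.1 against 478.7.

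Surface partners of FGF were described in a pair of lists. All 9 measured membrane proteins that bind FGF or its receptors were mesothelial-high, 6 of them also once arrays were centred, and their median of 2.53 lay 1.86 beyond the typical gene. Flrt1 and Flrt3, transmembrane proteins that bind FGF receptors, read 505.3 against 17.5 and 552.4 against 52.2, 28.9-fold and 10.6-fold higher. The SD over their 2 probe sets was 2.15 for Flrt1 and 0.34 for Flrt3. The smallest differences were those of the heparan sulfate proteoglycan genes Sdc4, 2.64-fold, and Gpc3, 2.87-fold. Of 17 genes that make or edit heparan sulfate, 14 were above the floor, 11 of them mesothelial-high and 1 liver-high, and the median of 1.40 lay 0.74 beyond the typical gene. Hs3st3a1, a sulfotransferase, read 180.6 against 13.8, 13.1-fold higher, and Sulf1, an enzyme that trims sulfate and is known to dampen FGF signalling, 5865 against 671.7, 8.73-fold higher. Ndst3 read 17.4 against 79.7, 4.58-fold higher in liver cells, and Hs6st1 833.2 against 1002. After median centring 4 of the 14 were mesothelial-high, or 28.6%, near the 23.9% of all genes, and 1 liver-high.

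**Figure D5:**
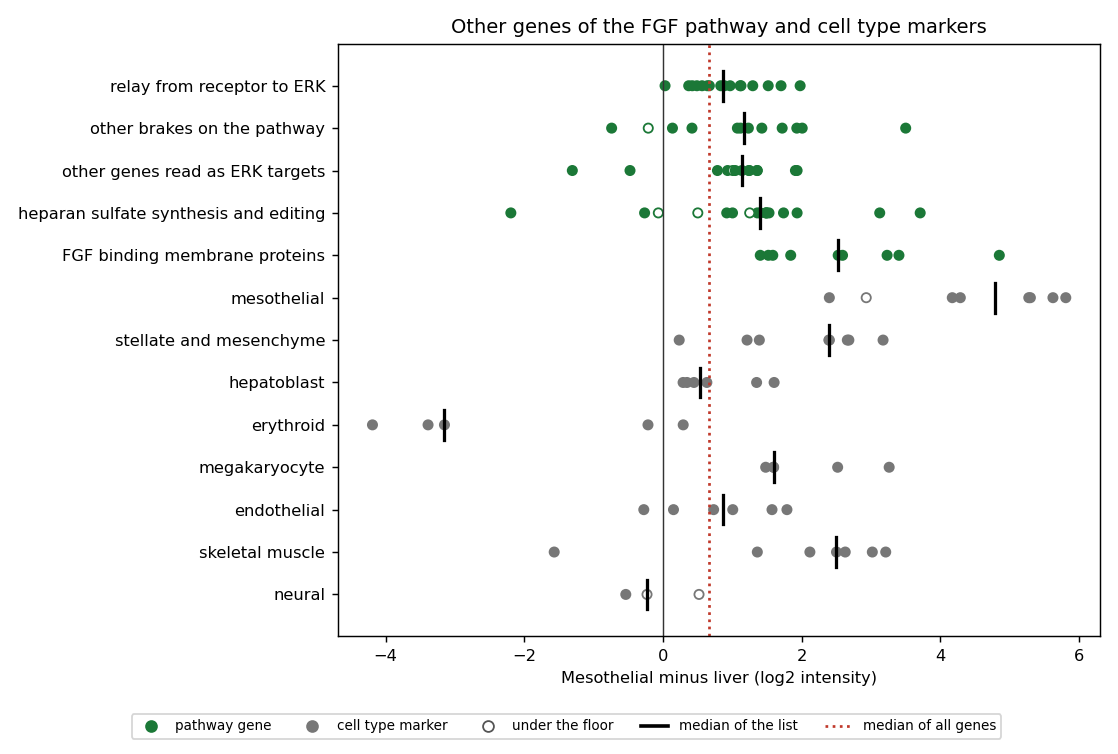
Difference (mesothelial minus liver, log2 intensity) of each gene in 5 pathway lists (green) and 8 marker lists (grey), with open points under the floor, black bars at list medians and a dotted line at the median of all genes (0.66). The membrane partners of FGF (median 2.53) lie to the right of the relay genes (0.86), and the muscle and stellate markers (2.50 and 2.40) lie to the right of the hepatoblast markers (0.54).

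Markers of several cell types also differed between the arrays, in either direction, and in sorted bulk samples more cells of a type and more RNA per cell cannot be told apart. Over all genes above the floor, 45.4% were mesothelial-high and 3.83% liver-high as deposited, and 23.9% and 9.25% after median centring. Of 8 mesothelial markers, 7 were above the floor and all 7 were mesothelial-high, also after centring, with summed intensities of 12798 and 449.5. Muc16 and Msln were at the control level in liver cells. Stellate and mesenchymal markers were mesothelial-high for 7 of 8, with sums of 16566 and 2655, and these included Des at 174.9 against 33.3 and Pdgfra at 1991 against 220.5. All sums given for marker lists add probe sets that bind with different efficiency, so each is ruled by its brightest members. Col1a1 alone read 11942.5 and 1890.7, so the stellate and mesenchymal sums are mostly that of 1 gene. Lhx2 stands in both this and the mesothelial list. Of 7 skeletal muscle markers, 6 were mesothelial-high and 1 liver-high, with sums of 3439 and 616.1, among them the myogenic factors Myod1 at 294.4 against 47.6 and Myog at 254.1 against 58.5. After median centring 5 of the 8 stellate and mesenchymal markers were mesothelial-high. Of the 7 muscle markers 5 then were, and 1 was liver-high. Fgfr1 is a gene of mesenchyme and Fgfr4 one of muscle precursors too, and the part of these cells in the FGF values was not tested.

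All 6 hepatoblast markers were brighter on the mesothelial array as deposited, and 2 of 6 after median centring, with sums of 54631 and 36592. The mesothelial-high ones, named after their values were seen, were Hnf4a at 2932 against 965.4 and Dlk1 at 9145 against 3587, and 0 were after centring. Alb read 15683 against 12832 and Afp 13191 against 10376. Of 5 erythroid markers, 3 were liver-high, with sums of 5959 and 15018, among them Hbb-bh1 at 387.9 against 4066 and Epb42 at 62.7 against 1146. Those not called were Klf1 at 2494 against 2899 and Gata1 at 2464 against 2014, the latter brighter on the mesothelial array as deposited. All 5 megakaryocyte markers were mesothelial-high, with sums of 20049 and 6256, among them Itga2b at 1257 against 219.3 and Gp1bb at 1984 against 206.7. After median centring 2 of these 5 markers were mesothelial-high. Pf4 at 9712 against 3479 and Ppbp at 6272 against 2078 weigh most in the megakaryocyte sums. Endothelial markers were mesothelial-high in 3 of 6 cases, near the share of all genes, and in 1 of 6 after median centring. Their sums were 2555 and 1236, although Pecam1 read 84.9 against 102.9 and Cdh5 105.0 against 63.3. Of 3 neural markers, 0 were called by their gene values, with sums of 93.4 and 95.9, and Sox10 read 47.3 against 33.0 and Tubb3 14.4 against 16.9. By probe set, 2 of 3 for Sox10 were at least 2-fold brighter in mesothelial cells, with differences up to 3.27 and 1 above the floor, and 1 of 3 for Elavl4, at 1.55. The part of each of these cell types in the FGF values was not tested.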

How the data were processed

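RNA was measured on 2 Affymetrix Mouse Genome arrays with 45101 probe sets, 64 of them controls, 1 array a group. The authors deposited intensities per probe set, which by their range are linear. RMA and Partek appear in the submitters' processing notes, without versions. The arrays' medians differ, and how they were scaled is not stated. The number of arrays limits the precision. A label describes embryos before zygotic genome activation, and the stated E12.5 was used.

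Names came from the platform annotation (34945 probe sets with 1 symbol, 932 with several), and the 42 FGF genes all matched RefSeq (GRCm38.p6), which was used for names and promoter sequences. Log2 was taken with Python 3.11.15, numpy 2.4.6 and pandas 2.3.3, with no other scaling in the main values. A call was a difference of at least 2-fold in a gene above the floor. The planned floor judged a gene by its brighter value only. It was widened to either array after the data were seen, so that centring could not change it. The planned floor passes 11905 genes in place of 12018 and 23 FGF genes in place of 24, without Fgf12, and calls 18 and 0 FGF genes as the wider one does. The counting was tested on simulated arrays. Every FGF gene was to be named, with 2 genes from each end of each pathway list and the first 2 of each marker list. Some listed genes are not reported here. Members and lists were chosen with earlier results of these data known. Alternatives were a median per gene, omission of probe sets ending in _x_at or _s_at, 5 scalings (2 chosen after seeing the data), other floors, a 4-fold threshold and low values set to the control level (after seeing the data). Centring used 13 reference genes or 18 hybridisation controls.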

Additional observations from a re-analysis of the deposited data

How the results depend on the processing

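With 18 FGF genes at least 2-fold higher in mesothelial cells as deposited, the count was 14 after median centring, 10 after reference gene centring, 10 after quantile normalization, 9 after hybridisation control centring, 9 at a 4-fold threshold, 7 with a floor at the 75th percentile, 12 with the median over probe sets, 17 without probe sets ending in _x_at or _s_at and 22 with no floor. The first 5 settings also lower the share over all genes above the floor, from 45.4% to 23.9%, 20.8%, 20.7%, 14.6% and 15.9%. Under the other settings, in the order given, the share over all genes was 42.9%, 38.4%, 43.4% and 36.2%. The count higher in liver cells was 0 as deposited, 1 after median centring, reference gene centring or quantile normalization (Fgf14), and 2 after hybridisation control centring (Fgf12 and Fgf14). Among all called genes the mesothelial-high share, 92.2% as deposited, was 72.1%, 65.1%, 65.1%, 86.7% and 44.9% under median centring, reference gene centring, quantile normalization, removal of the paired reference gene median, and hybridisation control centring. Apart from quantile normalization, these settings by construction subtract one constant from every difference, in that order 0.64, 0.77, 0.26 and 1.08.

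The ligand median, 0.18 as deposited, reversed to -0.46, -0.59, -0.14, -0.083 and -0.90 under these scalings in the same order, and was 2.00 over the 8 ligands above the floor, 4 of which passed it only on the mesothelial array where they are high, so that value follows from the filter. Over all 42 genes the median, 1.17, moved to 0.40 with reference gene centring and 0.093 with the hybridisation controls. Under the same 2 settings the receptors moved to 1.34 and 1.03 (1.28 by quantile normalization), the feedback inhibitors to 1.12 and 0.81, the Etv factors to 0.63 and 0.32, and the co-receptors and binding proteins to 0.28 and -0.032, a reversal. Under the settings that do more than subtract a constant, 54 of 72 values of single called genes moved by less than the pooled SD between probe sets, 18 by more, and 0 changed sign. Many of the 54 could not move, so the tally is no measure of robustness. Setting low values to the control level changed only Fgf5 and Fgf11, and leaving out _x_at and _s_at probe sets only Fgfr1, Fgfr2 and Fgfrl1. The median over probe sets cannot change the 5 called genes with 1 probe set. No paired analysis was possible because each group has 1 array.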
